A study of Mus musculus with 6 samples.

Results

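The nuclear-encoded subunits of the respiratory chain and of ATP synthase were compared between hematopoietic stem cells with and without the lymphotoxin-β receptor. Members were chosen by a rule on gene symbols, written with earlier results of these data known: the Ndufa, Ndufb, Ndufc, Ndufs and Ndufv genes of complex I, Sdha to Sdhd of complex II, the Uqcr genes and Cyc1 of complex III, the electron carrier Cycs, the Cox4i to Cox8 genes of complex IV and the Atp5 genes of complex V, without pseudogenes. These symbols named 86 of the 26216 genes in the files. LT/ST-HSCs, the long-term and short-term stem cells of the bone marrow, had been sorted by FACS from mixed chimeras 6 weeks after lethally irradiated Ly5.1/Ly5.2 recipients had been given LSKs, the Lin-Sca1+c-Kit+ cells of bone marrow, of both donors. Donor cells were either Ltbr-/- (CD45.2), which lack the receptor in every cell of the donor, or Ly5.1 (CD45.1), which carry it, and both were thus exposed to the same transplantation. Cells of 6 chimeras had been pooled to 3 replicates per genotype, and the 2 genotypes also differ by design in the CD45 form of Ptprc. Donors of the Ltbr-/- replicates were 13 weeks, 10 weeks and 10 to 13 weeks old, and those of each Ly5.1 replicate 7 to 13 weeks, so that donor age may differ between the genotypes. RNA levels are given as the deposited signal, a normalized linear value that is 2 to the power of a regularized log. All fold changes are log2 of Ltbr-/- over Ly5.1, with the standard error (SE), n = 3 per group and Benjamini-Hochberg adjusted p of limma over the 13108 genes tested. The signal of the knocked-out gene, Ltbr, was 564, 549 and 522 in Ly5.1 cells but 24.2, 26.4 and 23.1 in Ltbr-/- cells, which checks the labels.

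The respiratory chain passes electrons from NADH, through complex I, and from succinate, through complex II, to ubiquinone, then through complex III and cytochrome c to oxygen at complex IV. Complexes I, III and IV pump protons out of the mitochondrial matrix, and complex V, the ATP synthase, lets them flow back and makes ATP. Most subunits are encoded in the nucleus and imported, while a small set is encoded by the mitochondrial genome. Long-term HSCs are known for relying on glycolysis more than their differentiating progeny do. Promoters of many subunit genes carry binding motifs of NRF1 and of the ETS factor GABP.

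The promoter sequences of 5 members are shown because they carry these motifs, 4 of them in members past both thresholds and 1 in a member that did not pass. Of the members past both thresholds described next, Ndufa11 and Atp5g2 had a match to the NRF1 motif and Uqcrh and Atp5e a match to the ETS motif in the 200 bases before the start of transcription. Sdha, the catalytic flavoprotein of complex II and the member with the lowest log2 fold change, had 3 matches to the NRF1 motif there. Sequences are from RefSeq (build GRCm38.p6), written 5′ to 3′ along the strand of the gene, with matches on either strand in capitals. The capitals are the NRF1 match in Ndufa11, Atp5g2 and Sdha, the ETS match (CCGGAAG, here on the opposite strand) in Uqcrh and Atp5e, and 2 SP1 matches (GGGCGG on either strand) in Atp5e.
Ndufa11, chr17:56717562-56717761, plus strand: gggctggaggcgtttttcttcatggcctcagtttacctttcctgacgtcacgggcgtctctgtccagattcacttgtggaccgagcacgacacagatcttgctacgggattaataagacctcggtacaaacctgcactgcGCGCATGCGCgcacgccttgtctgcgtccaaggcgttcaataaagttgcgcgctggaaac
Atp5g2, chr15:102671048-102671247, minus strand: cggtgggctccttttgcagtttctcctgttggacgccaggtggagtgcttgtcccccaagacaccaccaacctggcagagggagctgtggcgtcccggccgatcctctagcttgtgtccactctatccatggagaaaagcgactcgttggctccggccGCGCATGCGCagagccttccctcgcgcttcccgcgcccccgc
Uqcrh, chr4:116075071-116075270, minus strand: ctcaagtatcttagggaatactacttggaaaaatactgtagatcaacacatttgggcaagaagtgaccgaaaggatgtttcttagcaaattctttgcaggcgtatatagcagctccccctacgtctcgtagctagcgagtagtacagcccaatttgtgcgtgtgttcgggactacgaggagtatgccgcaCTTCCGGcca
Atp5e, chr2:174464102-174464301, minus strand: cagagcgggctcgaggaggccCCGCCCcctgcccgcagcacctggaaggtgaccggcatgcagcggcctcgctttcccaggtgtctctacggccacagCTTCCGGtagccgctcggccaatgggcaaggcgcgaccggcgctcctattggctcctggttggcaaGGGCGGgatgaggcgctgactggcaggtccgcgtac
Sdha, chr13:74350241-74350440, minus strand: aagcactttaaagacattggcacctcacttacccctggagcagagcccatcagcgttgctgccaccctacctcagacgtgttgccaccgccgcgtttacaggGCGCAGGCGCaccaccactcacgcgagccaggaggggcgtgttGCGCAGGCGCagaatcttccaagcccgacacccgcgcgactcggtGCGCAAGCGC

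Transcripts of the respiratory chain were higher in Ltbr-/- LT/ST-HSCs. Of the 86 members, 82 were expressed highly enough to be tested, and 58 of the 82 were higher at an adjusted p under 0.05, against 10.6% of all tested genes. None was lower by limma, at an adjusted or an unadjusted p under 0.05, where 4.18% of all tested genes were lower at the adjusted p. When a fold of at least 1.5 was also required, 13 members were higher, against 2.72% of all tested genes, and none was lower, against 0.061%. The median log2 fold change was 0.39 over the 82 members, with a range from -0.12 to 1.02, and -0.01 over all tested genes. In 65 members every Ltbr-/- replicate lay above every Ly5.1 replicate, against 17% of all tested genes, which is the smallest exact two-sided permutation p (0.1) that 3 against 3 samples can give. Members were more abundant than most genes, with a median signal of 1323 against 354, and among the upper 25% of genes by mean signal 16.4% were higher at the adjusted p and 5.17% past both thresholds. In a bulk sample a change in the mix of cells cannot be told apart from a change of RNA per cell.

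The 13 members past both thresholds were Cox8a, Cox4i1, Cox5a and Cox6c of complex IV, Ndufa6, Ndufb8, Ndufa11, Ndufa13 and Ndufa2 of complex I, Atp5e, Atp5o and Atp5g2 of complex V, and Uqcrh of complex III. Their log2 fold changes ran from 0.59 to 1.02. The fold threshold cut through a run of close values: Atp5g2 (fold 1.507), Uqcrh (1.508) and Ndufa2 (1.511) lay just inside, and Cox6b1 (1.496), Ndufa7 (1.494) and Ndufv3 (1.483) just outside. Leaving out Ly5.1 replicate 3 raised the count to 20, with Cox6b1, Ndufa7, Ndufv3, Atp5g3, Ndufa1, Cox6a1 and Uqcrq added. Without Ly5.1 replicate 2 it was 9, with Atp5g2, Atp5o, Ndufa2 and Uqcrh lost. Without Ltbr-/- replicate 3 it was 10, with Atp5g2, Ndufa11, Ndufa2 and Uqcrh lost and Ndufa7 added. Ndufa2 was also lost without Ltbr-/- replicate 1, where Cox6b1 was added, and Cox6c and Ndufa13 were lost without Ly5.1 replicate 1, which left 11. Without Ltbr-/- replicate 2 the count was 17, with Atp5g3, Cox6b1, Ndufa7 and Ndufv3 added. The median of all 82 members stayed between 0.35 and 0.42 when any 1 sample was left out.

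**Figure D1:**
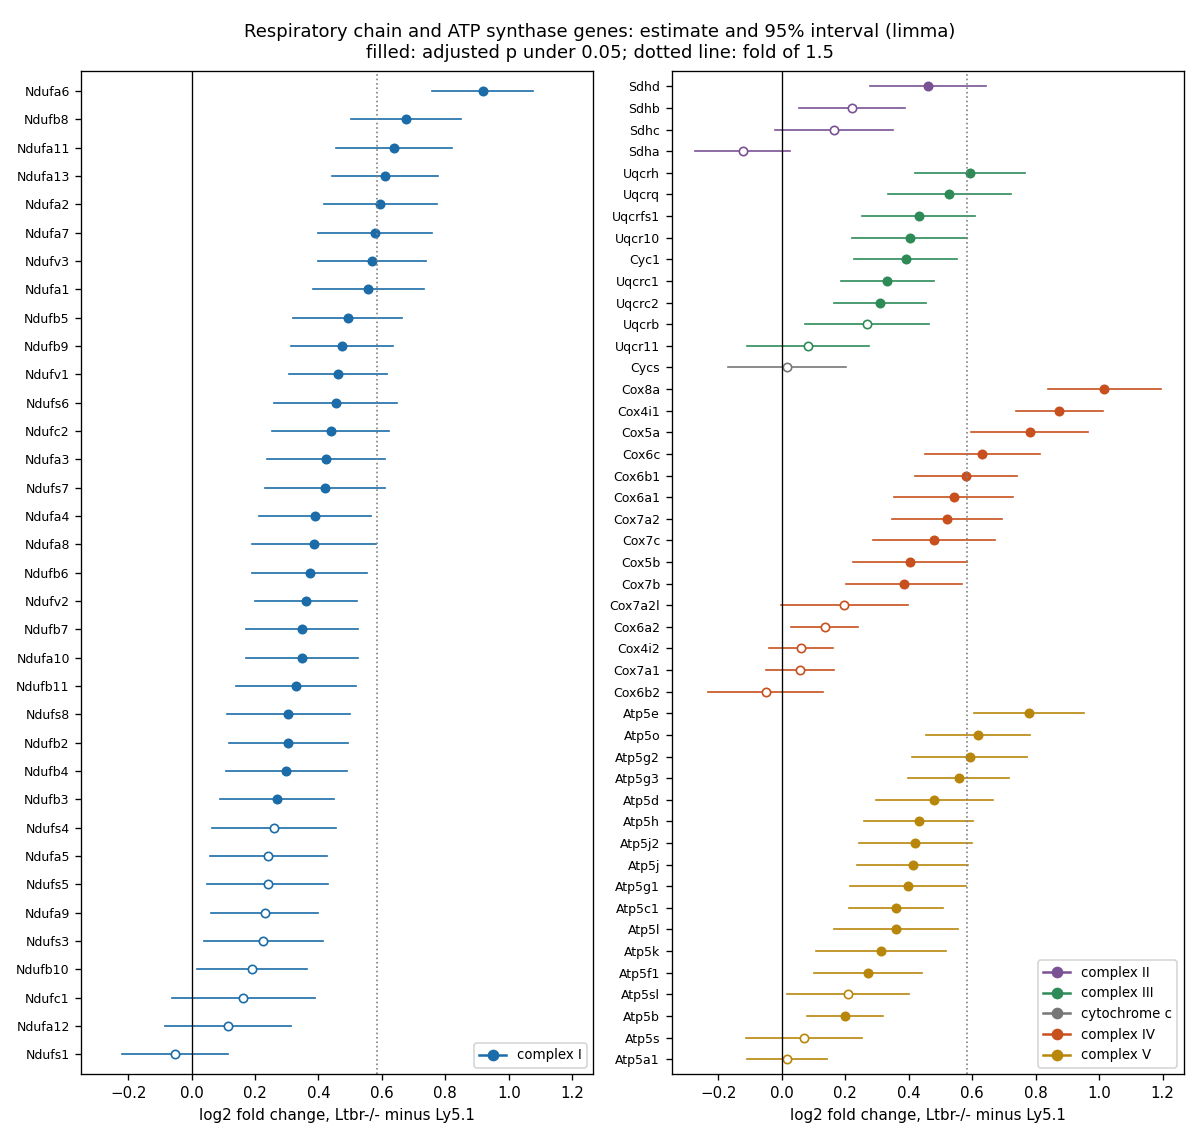
Log2 fold change (x axis, Ltbr-/- minus Ly5.1) of 81 of the 82 tested members, with the limma estimate as a point and its 95% interval as a line, by complex; filled points have an adjusted p under 0.05 and the dotted line marks a fold of 1.5. 58 points are filled, all to the right of 0, and Sdha, Ndufs1 and Cox6b2 are the 3 estimates below 0.

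Complex I, the NADH dehydrogenase and the largest of the complexes, has a catalytic core and many accessory subunits. Of its 36 tested members, counted by symbol and thus with Ndufa4, 26 were higher at the adjusted p and 5 past both thresholds, with a median of 0.37. Of the 28 accessory subunits, which surround the core and do not carry redox centres, 21 were higher and 5 past both, with a median of 0.38. Of the 7 nuclear-encoded core subunits, 4 were higher and none reached the fold, with a median of 0.31. This difference between core and accessory subunits was not tested.

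Ndufa6, an accessory subunit of the LYR motif family (chr15:82350139-82354291, GRCm38.p6), had the largest change of complex I, and is also in the study's own list of changed genes, which was drawn from the same samples and is no independent evidence. Its signal was 4576, 5129 and 4757 in Ltbr-/- and 2336, 2640.3 and 2684 in Ly5.1 cells. Every Ltbr-/- replicate lay far above every Ly5.1 replicate, with a log2 fold change of 0.92 (SE 0.08, adjusted p = 7.71e-12). Ndufb8, an accessory subunit of the membrane arm, was at 3989, 4117 and 4284 against 2354, 2376 and 3079.6. Ly5.1 replicate 3 was the highest of its group but stayed below the Ltbr-/- replicates (0.68, SE 0.09, adjusted p = 1.09e-07). Ndufa11, whose promoter with the NRF1 motif is shown above, was at 1160.0, 1114 and 1279 against 764.5, 711.5 and 805.5. Its groups did not overlap either, and the log2 fold change was 0.64 (SE 0.09, adjusted p = 8.73e-07). The accessory subunits Ndufa13 (0.61) and Ndufa2 (0.60) completed the 5, both without overlap.

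The core subunits carry the electrons from NADH to ubiquinone. In the N module, which oxidizes NADH, Ndufv1, the flavin-binding subunit, was at 3391, 3618 and 3699 in Ltbr-/- and at 2587.5, 2566 and 2620.3 in Ly5.1 cells. It was higher (0.46, SE 0.08, adjusted p = 1.67e-05), as was its partner Ndufv2, an iron-sulfur subunit (0.36, adjusted p = 1.05e-03). Ndufs1, the largest core subunit, with several iron-sulfur clusters, was at 1797, 1743 and 1735 against 1789, 1956 and 1727. Its groups overlapped, and the log2 fold change was -0.05 (95% interval -0.22 to 0.12, adjusted p = 0.745). Among the Q module subunits, next to the ubiquinone site, Ndufs7 (0.42, adjusted p = 1.22e-03) and Ndufs8 (0.31, adjusted p = 0.0245) were higher. The groups of Ndufs8 overlapped, with Ly5.1 replicate 3 at 1475 and Ltbr-/- replicate 3 at 1466. Its call was lost when Ltbr-/- replicate 2 (adjusted p = 0.119), Ltbr-/- replicate 3 (0.0516), Ly5.1 replicate 1 (0.143) or Ly5.1 replicate 2 (0.141) was left out. Ndufs3 (0.23, adjusted p = 0.101) did not pass, but passed without Ltbr-/- replicate 2 (adjusted p = 0.0369). Ndufa12, an accessory subunit, had a log2 fold change of 0.11 with overlapping groups. For Ndufs3, 26.8% of its 76-base windows, the length of a read, were also found in other genes, and for Ndufa12 21.8%, so that their reads could have been split. Members that passed shared windows too, among them Ndufb4 (35.2%), Ndufb9 (20.2%) and, in complex IV, Cox7c (24.9%), Cox5b (16.8%) and Cox6c (10.6%). Without members that share 10% or more of their windows the median of all members was 0.39.

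Complex II, succinate dehydrogenase, which also works in the TCA cycle and is the only complex with no subunit from the mitochondrial genome, had the smallest median (0.19), over 4 members. Sdhd, a membrane anchor, was at 1056, 1143 and 1000.2 in Ltbr-/- and at 763.8, 726.9 and 832.1 in Ly5.1 cells. It was the one member higher at the adjusted p, and its groups did not overlap (0.46, SE 0.09, adjusted p = 2.23e-04). Sdha was at 4478, 5052 and 4783 against 5305, 4818.5 and 5470.4. Ltbr-/- replicate 2 lay above Ly5.1 replicate 2, and the log2 fold change of -0.12 (95% interval -0.27 to 0.03, adjusted p = 0.288) did not pass; after quantile normalization it was lower (-0.28, adjusted p = 0.00348). Sdhb, the iron-sulfur subunit, was at 1920.2, 1891 and 1889 against 1672, 1697 and 1524. Its groups did not overlap but it missed the threshold (0.22, adjusted p = 0.0646), which it passed among the upper 25% of genes by mean signal (0.0314). Sdhc, the other membrane anchor, had a log2 fold change of 0.16 with overlapping groups (adjusted p = 0.25).

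In complex III, the cytochrome bc1 complex, 7 of 9 members were higher, with a median of 0.39. Both nuclear-encoded redox subunits were among them. The Rieske iron-sulfur protein Uqcrfs1 was at 1518, 1807 and 1812 in Ltbr-/- and at 1194.5, 1321.5 and 1284 in Ly5.1 cells. Cytochrome c1, encoded by Cyc1, was at 2406, 2499 and 2522 against 1831, 1973 and 1867. Neither gene had overlapping groups, and the log2 fold changes were 0.43 (SE 0.09, adjusted p = 4.06e-04) for Uqcrfs1 and 0.39 (SE 0.08, adjusted p = 4.11e-04) for Cyc1. The hinge protein Uqcrh, which helps cytochrome c1 meet cytochrome c, was at 2759, 2925 and 3004 against 2028, 1677.5 and 2077.5. It had the highest log2 fold change of complex III (0.59, SE 0.09, adjusted p = 1.24e-06) and was followed by the small subunit Uqcrq (0.53). The core proteins Uqcrc1 (0.33) and Uqcrc2 (0.31) were also higher. Uqcr11, the smallest change of complex III, had overlapping groups (0.08, adjusted p = 0.63). Uqcrb missed the threshold (0.27, adjusted p = 0.0539), passed it without Ly5.1 replicate 2 (0.0262), and shared 28.5% of its windows with other genes.

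Cytochrome c, the soluble carrier between complexes III and IV, is encoded in somatic cells by Cycs. Its signal was 262.6, 283.4 and 267.4 in Ltbr-/- and 267.2, 262.9 and 274.0 in Ly5.1 cells. The groups lay within each other, with a log2 fold change of 0.02 (SE 0.09, adjusted p = 0.938). Other genes share 26.1% of its windows, many of them processed copies.

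Complex IV, cytochrome c oxidase, had the largest median of the complexes (0.48 over 15 tested members, counted by symbol and thus with Cox7a2l, 10 of them higher). All 10 of its commonly expressed nuclear subunits were higher, with a median of 0.56 and no overlap between the groups in any of them. Cox8a, one of its smallest subunits (chr19:7215158-7217616), was at 2253, 2471.5 and 2534 in Ltbr-/- and at 1211, 1074 and 1309.8 in Ly5.1 cells. This was the largest change of all members (1.02, SE 0.09, adjusted p = 8.95e-12), and the lowest Ltbr-/- replicate lay far above the highest Ly5.1 replicate. Cox4i1, a regulatory subunit to which ATP binds (chr8:120668225-120674209), was at 14458, 14809 and 15407 against 7785, 7562 and 9099.6. Ly5.1 replicate 3 was the highest control, well below the lowest Ltbr-/- replicate (0.87, SE 0.07, adjusted p = 6.61e-13). Cox5a, the third by size of change within complex IV, was at 2301, 2641 and 2485 against 1236, 1493 and 1614 (0.78, SE 0.09, adjusted p = 1.43e-08), again without overlap. Cox6c (0.63), Cox6b1 (0.58), Cox6a1 (0.54), Cox7a2 (0.52), Cox7c (0.48), Cox5b (0.40) and Cox7b (0.39) followed. Cox8a and Cox4i1 are in the study's list of changed genes as well. After quantile normalization the log2 fold change of Cox4i1 was 0.57, under the fold threshold.

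The tissue-restricted isoforms of complex IV stood at low levels in both genotypes. Per kilobase of transcript, the mean signal over the 6 samples was 42.1 for Cox4i2, a lung and hypoxia isoform, and 15059 for Cox4i1. It was 54.4 for Cox6a2 and 68.3 for Cox7a1, the heart and muscle isoforms, against 2222 for Cox6a1 and 2701 for Cox7a2. Cox6b2, the testis isoform, was at 349.1 per kilobase and Cox6b1 at 4462. None of the 4 tested isoforms passed, with log2 fold changes of 0.06 for Cox4i2, 0.13 for Cox6a2, 0.06 for Cox7a1 and -0.05 for Cox6b2. Weak genes are drawn towards no change by the regularized log. Cox7b2, Cox8b and Cox8c were listed at 1 in every sample and Ndufa4l2 at about 0.80, and these 4 members were not tested. Among members named for one complex but placed elsewhere, Ndufa4, now counted as a subunit of complex IV, was higher (0.39, adjusted p = 1.35e-03). Cox7a2l, a factor that joins complexes III and IV, was not past the threshold (0.20, adjusted p = 0.195).

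**Figure D2:**
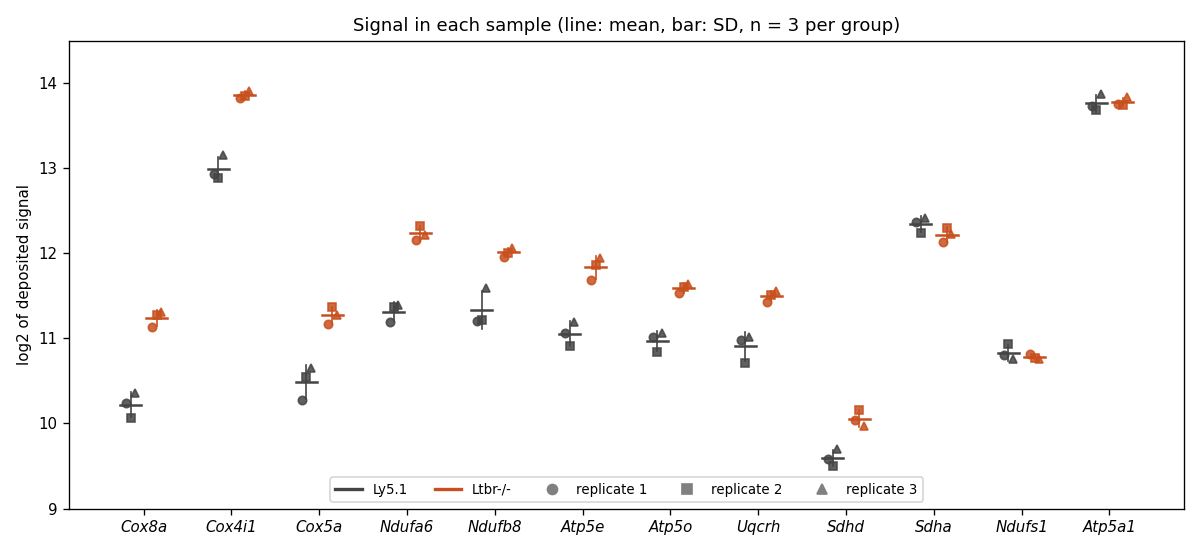
Log2 of the deposited signal (y axis) of 12 members in each of the 6 samples, with Ly5.1 in grey and Ltbr-/- in orange, the mean as a line and the SD as a bar (n = 3 per group). The groups are apart from Cox8a to Sdhd and overlap in Sdha, Ndufs1 and Atp5a1.

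In complex V, counted by symbol and thus with Atp5s and Atp5sl, 14 of 17 members were higher, with a median of 0.40 and 3 past both thresholds. The F1 sector is the catalytic head in the matrix. Its ε subunit Atp5e, a small protein of the central stalk, was at 3299, 3733 and 3952 in Ltbr-/- and at 2138, 1920.4 and 2346 in Ly5.1 cells. The groups were well apart (0.78, SE 0.08, adjusted p = 3.41e-09). The other stalk subunits of F1, Atp5d (0.48, adjusted p = 1.44e-04) and Atp5c1 (0.36, adjusted p = 4.01e-04), were higher as well. The α and β subunits, which form the catalytic ring, had the lowest log2 fold changes of the sector. Atp5a1, the α subunit, was at 13802, 13740.1 and 14612 against 13649, 13117 and 14981, with overlapping groups (0.02, 95% interval -0.11 to 0.14, adjusted p = 0.907). Atp5b, the β subunit with the catalytic sites, was at 17245, 18618.5 and 18930.2 against 15891, 15408 and 16447.5. Its groups did not overlap and the log2 fold change was 0.20 (SE 0.06, adjusted p = 0.0182). This call was lost without Ltbr-/- replicate 2 (adjusted p = 0.123), Ltbr-/- replicate 3 (0.131), Ly5.1 replicate 1 (0.057) or Ly5.1 replicate 2 (0.0639). After quantile normalization both turned to lower, Atp5a1 to -0.36 and Atp5b to -0.23.

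The remaining ATP synthase subunits were higher throughout. All 3 genes of the c ring, the rotor in the membrane, which encode an identical mature protein, passed: Atp5g2 (0.59), Atp5g3 (0.56) and Atp5g1 (0.40). Atp5g2 was at 1494, 1432 and 1644 in Ltbr-/- and at 1006.5, 930.2 and 1097 in Ly5.1 cells, with no overlap (SE 0.09, adjusted p = 3.06e-06). All 7 subunits of the peripheral stalk and membrane part passed too. Atp5o, the oligomycin sensitivity protein that ties the stalk to F1, was at 2952, 3108 and 3202 against 2066, 1834 and 2145 (0.62, SE 0.08, adjusted p = 2.20e-07), and its groups did not overlap. The other 6 ranged from 0.27 for Atp5f1 to 0.43 for Atp5h. Atp5l shared 63.3% of its windows with other genes and Atp5h 36.2%, so that their values are uncertain. Atp5s (0.07, adjusted p = 0.674) and Atp5sl (0.21, adjusted p = 0.146), which bear the name but are now Dmac2l and Dmac2, were not past the threshold.

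Of the large catalytic subunits that did not pass, Sdha, Ndufs1 and Atp5a1 have long transcripts, and in all tested genes the share that was higher fell with transcript length. Length was taken from the longest protein-coding transcript of each gene, which need not be the one expressed in these cells. The median transcript of the members was 891.5 bases long, against 2984 for all tested genes. Of the 7 members with transcripts of at least 2500 bases, 2 were higher (Atp5g1 and Ndufb2) and the median was 0.02; Sdha, Sdhc, Ndufs1, Atp5a1 and Cycs were the others. Among all tested genes of that length 4.337% were higher. The transcript taken for Atp5g1 (4715 bases) was longer than its RefSeq gene (chr11:96072793-96075694), and that for Ndufb2 had 4371 bases. The length class of both is therefore uncertain. Of the 16 members of 1500 to 2500 bases 12 were higher, 75% against 12.9% of all genes of that length. At 1000 to 1500 bases it was 7 of 13 members, against 24.14%. At 700 to 1000 bases 17 of 20 members were higher, against 34.29%, and below 700 bases 20 of 26, against 36.3%. Across the 82 members the log2 fold change had a Pearson correlation of -0.37 (Spearman -0.34) with log2 transcript length and of 0.40 (Spearman 0.39) with log2 signal; genes share their libraries and are not independent replicates. Across 12691 tested genes with a transcript the correlation with length was -0.37 (Spearman -0.41). After a correction for transcript length and GC content the median of the members was 0.26. Then 46 members were higher at the adjusted p and 6 were past both thresholds: Cox8a, Ndufa6, Cox4i1, Cox5a, Atp5e and Ndufb8. The share of all tested genes that was higher in this corrected fit is not given here, so these counts have no background of their own.

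**Figure D3:**
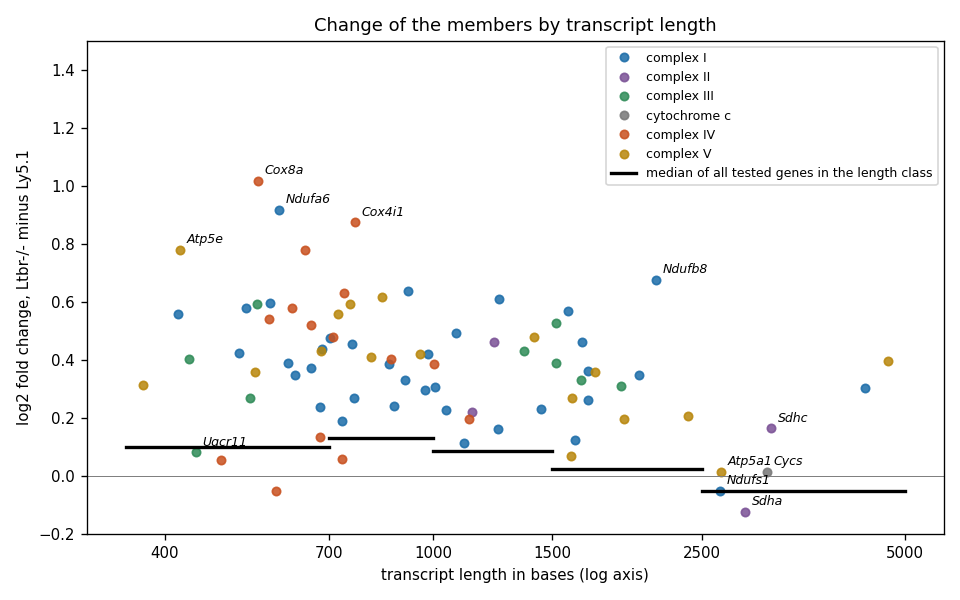
Log2 fold change (y axis) of the 82 tested members against transcript length in bases (x axis, log scale), coloured by complex, with the median of all tested genes in each of 5 length classes as a black line. Members of up to 2500 bases lie mostly above the black lines, and 5 of the 7 longer ones lie between -0.12 and 0.16.

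**Figure D4:**
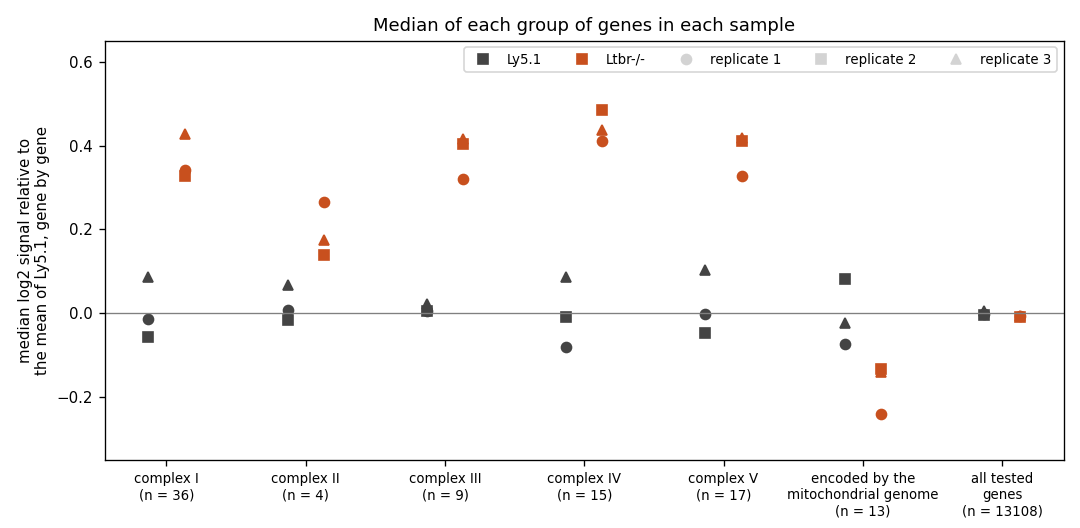
Median over the genes of each complex, of the mitochondrially encoded subunits and of all tested genes (y axis, log2 signal relative to the mean of Ly5.1 for each gene) in each sample, with Ly5.1 in grey and Ltbr-/- in orange. In every complex the 3 Ltbr-/- samples lie above the 3 Ly5.1 samples, and the order is inverted for the mitochondrially encoded subunits.

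Sample by sample, the median of the 82 members relative to the mean of Ly5.1 was 0.34, 0.38 and 0.41 in the Ltbr-/- replicates and -0.01, -0.03 and 0.08 in the Ly5.1 replicates. Ly5.1 replicate 3 was the highest control, and the distance between the groups was larger than the spread within either. In complex IV the medians were 0.41, 0.48 and 0.44 against -0.08, -0.01 and 0.09, and in complex II 0.26, 0.14 and 0.17 against 0.01, -0.01 and 0.07.

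The subunits encoded by the mitochondrial genome mostly had log2 fold changes below 0. Of the 13 subunits, 6 were lower and 2 higher at the adjusted p, none by a fold of 1.5, and the median was -0.17. Among all tested genes 4.18% were lower and 10.6% higher. Cytochrome b of complex III, CYTB, was at 43060.0, 44470.5 and 46116 in Ltbr-/- and at 52948, 60157 and 54317.5 in Ly5.1 cells, with no overlap (-0.32, SE 0.05, adjusted p = 5.95e-06). ND4L of complex I was at 1379.5, 1315 and 1396.5 against 1703, 1995 and 1693, also without overlap (-0.39, SE 0.09, adjusted p = 9.58e-04). The complex I subunits ND4 (-0.30), ND5 (-0.27) and ND2 (-0.19) and the ATP synthase subunit ATP8 (-0.25) were the other lower ones, and ATP6 (0.21) and COX3 (0.18) the higher ones. Shared windows were computed for the members alone, so that the division of reads between mitochondrially encoded genes, such as ATP6 and ATP8, was not checked. ND1 (-0.16), ND3 (-0.17), ND6 (-0.12), COX1 (0.01) and COX2 (0.10) were not past the threshold. These calls changed with the processing. Without moderation of the variance none of the 13 passed in either direction, and after quantile normalization 12 were lower. The correction for length and GC covered COX1 and COX2 alone, as the others had no matched transcript and were left out. The transcripts matched to COX1 (2867 bases) and COX2 (4453 bases) were found through synonyms and appear to be those of other genes. The median of 0.087 and the lack of lower calls after this correction thus say nothing about the mitochondrially encoded subunits. Without Ly5.1 replicate 2, the sample with the highest median of these genes (0.08), 3 were lower, and without Ltbr-/- replicate 2, Ltbr-/- replicate 3 or Ly5.1 replicate 1 none was higher. The call of ND2 was lost without any 1 sample other than Ly5.1 replicate 1 (adjusted p from 0.0608 to 0.151), that of ATP8 without Ltbr-/- replicate 1 or 3 or Ly5.1 replicate 1 or 2 (0.0566 to 0.281), and that of ND5 without Ly5.1 replicate 2 (0.0669), while ND1 was lower without Ly5.1 replicate 3 (0.0257).

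Assembly factors build the complexes but are not part of them. Of the 36 tested, the ATPase inhibitor included, 8 (22.2%) were higher, against 10.6% of all tested genes and 16.4% of the upper 25% by mean signal. None was lower by limma, against 4.18% (2 were lower at an unadjusted p under 0.05), and the median was 0.04. Cox17, the copper chaperone of complex IV, was the one past both thresholds. It was at 1266.5, 1235 and 1314 in Ltbr-/- and at 647.0, 632.7 and 832.9 in Ly5.1 cells, with no overlap (0.86, SE 0.10, adjusted p = 5.60e-09). The complex I factors Ndufaf3 (0.52), Ecsit (0.47) and Ndufaf5 (0.29), the complex IV factors Cmc1 (0.39), Cox18 (0.31) and Surf1 (0.26), and the inhibitor of ATP hydrolysis Atpif1 (0.25) were the others. The count fell to 4 without Ltbr-/- replicate 3 or Ly5.1 replicate 1 and to 5 without Ltbr-/- replicate 1, Ltbr-/- replicate 2 or Ly5.1 replicate 2. Of 6 further small subunits and partners whose symbols fall outside the rule, 4 were higher. Higd1a (0.65), a partner of complex IV, and 2010107E04Rik (0.59), a small proteolipid of ATP synthase, were past both thresholds, and Chchd2 (0.44), another partner of complex IV, and Usmg5 (0.32), a small ATP synthase subunit, were past the adjusted p alone. Ndufab1 (0.17) and Higd2a (0.14) were not past the adjusted p. Of 75 mitochondrial ribosomal proteins, which translate the mitochondrially encoded subunits, 24 (32%) were higher, against 10.6% of all tested genes, with a median of 0.20. None was lower by limma at an adjusted or unadjusted p under 0.05.

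**Figure D5:**
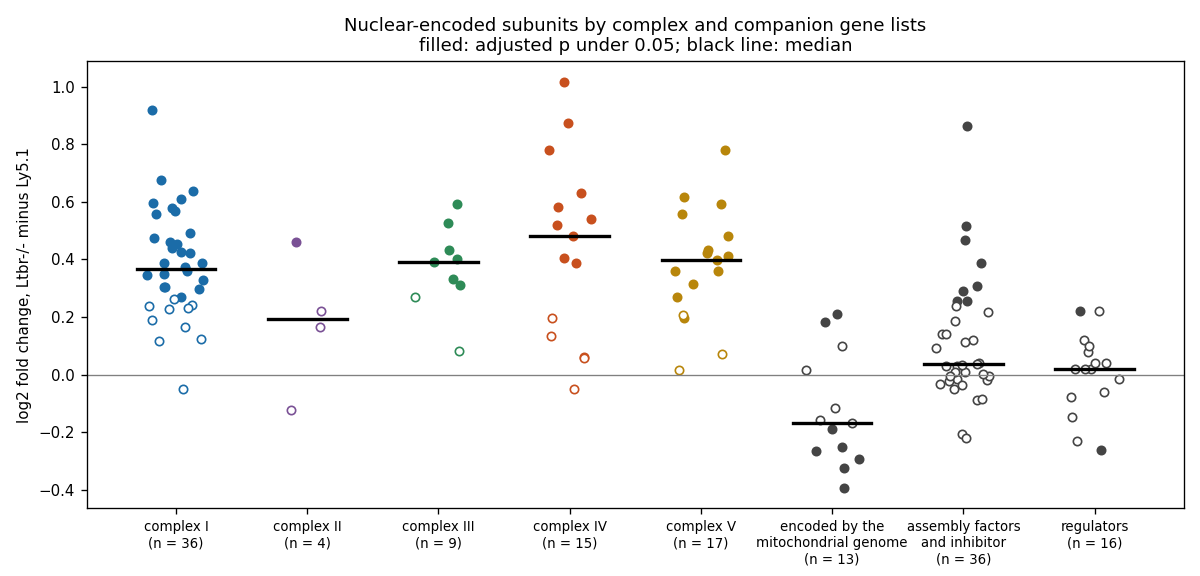
Log2 fold change (y axis, Ltbr-/- minus Ly5.1) of each tested gene, for the nuclear-encoded subunits of complexes I to V and for 3 companion lists, with the median as a black line and filled points for an adjusted p under 0.05. The medians are 0.37, 0.19, 0.39, 0.48 and 0.40 for complexes I to V, -0.17 for subunits encoded by the mitochondrial genome, 0.04 for assembly factors and 0.02 for regulators.

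Transcription factors and coactivators are known to control these genes. Of 16 tested regulators, 1 was higher (Myc, 0.22, adjusted p = 0.0443) and 1 lower (Gabpa, the DNA-binding subunit of GABP). The share that was higher, 6.25%, compares with 10.6% of all tested genes, of which 4.18% were lower. Gabpa was at 556.3, 541.7 and 511.8 in Ltbr-/- and at 651.9, 678.3 and 601.7 in Ly5.1 cells, without overlap, and just passed (-0.26, SE 0.09, adjusted p = 0.0478). Leaving out Ltbr-/- replicate 1 (adjusted p = 0.07), 2 (0.0965) or 3 (0.182), or Ly5.1 replicate 1 (0.113) or 2 (0.162), ended that call. The nuclear factors Nrf1 (0.12) and Esrra (0.08), the coactivators Ppargc1a (0.04) and Ppargc1b (-0.08), and Tfam (0.04), which packs mitochondrial DNA and helps to transcribe it, did not pass. In RefSeq promoters (250 bases before to 50 after the start, both strands), 74 promoters of 68 tested members were found. The NRF1 motif was in 24.3% of them and in 9.86% of the 11659 promoters of tested genes. The ETS motif was in 21.6% against 17.1%, the YY1 motif (AANATGGCG) in 16.2% against 4.90%, and the SP1 motif in 39.2% against 61.0%. Of the 51 members that were higher 14 had the NRF1 motif, and of the 17 that did not pass 3 had it, Sdha among them; the median log2 fold change was 0.43 with and 0.39 without the motif.

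Other gene groups differed between the genotypes as well. Of the 77 cytosolic ribosomal protein genes 75 were higher and 1, Rpl21, lower at the adjusted p, with a median of 0.80. Among all tested genes 10.6% were higher and 4.18% lower at the adjusted p. If samples were scaled to them, all genes shifted by -0.86, no member was higher and 74 were lower at the adjusted p; Cox8a (0.16), Ndufa6 (0.06) and Cox4i1 (0.01) alone stayed above 0. Relative to the median of all tested genes this scaling changed none of the distances between genes. That median was then -0.87, against -0.47 for the members. The share of all tested genes called lower under this scaling is not given here, so the 74 have no background. In all 10 neutrophil markers every Ltbr-/- replicate lay below every Ly5.1 replicate, against 13.5% of all tested genes, with a summed signal of 44562 to 45333 in Ltbr-/- and 58302 to 62937 in Ly5.1 samples, and 9 of them passed the adjusted p. The 7 erythroid markers summed to 4074 to 4388 against 2497 to 2935, with Hba-a1 at 0.99, and 9 mast cell and basophil markers to 7512 to 8083 against 4121 to 4707. Of the 6 tested mast cell and basophil markers, Cma1 (1.32) and Cpa3 (0.56) were higher, Prss34 (-0.41) was lower, Mcpt8, Fcer1a and Ms4a2 did not pass, and the median was -0.07; Mcpt1, Mcpt4 and Tpsb2 were at or under a signal of 5. The 8 B cell markers summed to 1409 to 1543 against 2262 to 2427; Igkc (-1.21) and Ighm (-1.04) were lower, Cd79a (0.62) was higher, Cd79b (0.18) did not pass, and Ms4a1 and Pax5 were at or under 5. The 4 progenitor markers outside the sort gate summed to 2748 to 3284.5 against 1920.4 to 2115, with Fcgr3 (1.08) higher and Flt3 (-0.28) lower. Of 8 tested monocyte and macrophage markers, Emr1 (0.83) and Cd68 (0.28) were higher and Lyz2 (-0.42) lower. The stem cell markers were present, and the 12 summed to 20690 to 21083 against 22166 to 23082, with Ly6a (-0.39), Cd34 (-0.31) and Meis1 (-0.23) lower and Gata2 (0.22) higher. The other 8 did not pass, Gata2 alone was above 0, and the median of the 12 was -0.16. In 6 of them every Ltbr-/- replicate lay below every Ly5.1 replicate, against 13.5% of all tested genes. The part of these differences, and of donor age, in the change of the respiratory genes was not tested.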

How the data were processed

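RNA of 3 Ltbr-/- and 3 Ly5.1 samples of LT/ST-HSCs had been sequenced from TruSeq Stranded mRNA libraries (Illumina NextSeq). For each gene the authors deposited a signal, made with SeqMan NGen (assembly of reads) and ArrayStar (quantification). The submitters' processing notes name DESeq2 and the build GRCm38; the annotation is not given in the sources used here. That the signal is 2 to the power of a regularized log was read from the values. No counts were used here, so that depth is unknown, no counting interval can be given, precision rests on the spread of 3 replicates, and shrinkage understates the change of weak genes.

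Log2 signal was fitted with limma 3.58.1 (lmFit, eBayes with trend, R 4.3.3), without a pseudocount, on the upper 50% of 26216 names by mean; repeated names kept the row with the highest mean. Thresholds followed the study's methods (adjusted p under 0.05, fold of at least 1.5). The paper does not name limma, so calls here need not match its list, which among the members holds Cox4i1, Cox8a and Ndufa6 alone. On simulated data for this comparison, 99.5% of 200 changed genes of 13108 (log2 fold change 1) were recovered. Smaller changes, such as the median of 0.39 of the members, were not simulated, so that this rate does not apply to them. Transcript lengths and shared windows came from the longest protein-coding transcript of each gene in GENCODE M21, or the longest of any kind where none was coding. Positions and promoters came from RefSeq, and all 86 members matched. Alternatives were a block by replicate number, other filters, scalings, variance models, thresholds and a pseudocount of 1, a loess correction for length and GC, and leaving out each sample. The genes named are the members past both thresholds, the 3 highest and 2 lowest of each complex, core, catalytic and carrier subunits, tissue-restricted isoforms, members the study lists, and called genes of the companion lists; others named were chosen after their values were seen. One member is counted but not reported by name here. Members and lists were chosen with earlier results of these data known.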

Additional observations from a re-analysis of the deposited data

How the results depend on the processing

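The median of the members was 0.39; scaled to ribosomal protein genes, a shift of -0.86 for every gene (median of all genes -0.87), it was -0.47, with -0.49, -0.67, -0.47, -0.38 and -0.46 for complexes I to V, -1.03 for mitochondrially encoded subunits and -0.82 for assembly factors. That scaling left 0 members higher by either rule, with 74 lower at the adjusted p and 27 past both thresholds, and made 0 mitochondrially encoded subunits higher and 13 lower and 0 assembly factors higher and 35 lower. After the correction for length and GC the medians were 0.26 for members and 0.24, 0.28, 0.34 and 0.26 for complexes I, III, IV and V. It left 6 members past both thresholds and 4 assembly factors higher. Its median of 0.087 for mitochondrially encoded subunits (1 higher, 0 lower) rests on COX1 and COX2 alone, because the others had no matched transcript. The transcripts matched to COX1 and COX2 appear to be those of other genes, so this median describes none of the subunits. Quantile normalization gave 7 members past both thresholds, 3 lower at the adjusted p, a median of 0.34 for complex III, a median of -0.40 with 0 higher and 12 lower for mitochondrially encoded subunits, and 5 assembly factors higher; Sdha was lower there (-0.28), and it turned Atp5a1 (-0.36), Atp5b (-0.23), COX1 (-0.37), COX2 (-0.40), COX3 (-0.29) and ATP6 (-0.35) to lower. Without moderation 6 members were past both thresholds and 20 higher at the adjusted p, 0 mitochondrially encoded subunits passed in either direction, and 0 assembly factors were higher and 1 lower. Without the intensity trend 0 mitochondrially encoded subunits were higher and 3 lower, and 1 assembly factor was lower. With no filter 4 assembly factors were higher, and in the upper 25% by mean their median was 0.24. No fold threshold gave 58 members and a fold of at least 2 gave 1. The cause of these changes was not tested. Shares of all tested genes are given for the main fit alone, so the counts under other settings stand without that background.

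Leaving out 1 sample at a time gave 9 to 20 members past both thresholds, 50 to 58 higher at the adjusted p, 0 to 2 mitochondrially encoded subunits higher and 3 to 6 lower, and 4 to 7 assembly factors higher with a median of 0.032 to 0.066. Deviations from the group mean had correlations over genes of 0.03, -0.01 and 0.09 between same-numbered replicates of the 2 genotypes. Between unlike-numbered ones they ran from -0.07 to 0.05. With 3 replicates per genotype this cannot decide whether replicates came from shared recipients, and the labels do not tie them to any. With the replicate number as a block 13 members were past both thresholds and 60 higher at the adjusted p. Among named genes it changed the call of ND1 alone, to lower (adjusted p = 0.0125). Genes that share windows with other copies and weak isoforms are the least certain values.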
